A study of Mus musculus with 4 samples.

Results

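Genes of the CCN family of matricellular proteins and the genes most often read as output of the Hippo pathway effectors YAP and TAZ were followed in explanted mouse ureters in which WNT secretion was blocked. A probe was taken where its gene name in the array files equals Ctgf, Cyr61, Nov, Wisp1, Wisp2, Ankrd1, Amotl2, Yap1 or Wwtr1. This gave 10 of the 39429 gene probes and 9 of the 29924 gene names on the array, and all 9 genes passed the filter on dim probes. Wisp3, the remaining CCN gene, is no member, and its probe was well above background on only 1 array in the control and 2 arrays in the treated channel, so that it was not tested. Both groups were ureters of wildtype NMRI embryos at E12.5, sex not determined, cultured for 18 h on transwell membranes in medium that per the methods lacked serum. Treated ureters received IWP-2 at 10 µM, an inhibitor of the acyltransferase Porcupine, and control ureters received the solvent DMSO. On each of 4 two-colour arrays a pool of treated ureters was set against a pool of control ureters, so that no value belongs to a single embryo. The treated RNA was red on arrays 1 and 3 and green on arrays 2 and 4. The methods give 4 samples for this experiment, whereas another passage of the study speaks of 2 pools, so that arrays of opposite dye order could share RNA. The p-values measure only the spread between these arrays.

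CCN proteins are secreted modular proteins of the extracellular matrix that bind integrins, LRP co-receptors and growth factors. Ctgf and Cyr61 are rapidly induced by stretch, TGF-beta and serum, and they are classical targets of YAP and TAZ, cofactors that are held in the cytoplasm by the LATS kinases and otherwise act in the nucleus through TEAD factors. Wisp1 and Wisp2 took their names from WNT induction, and Nov is often regulated oppositely to Ctgf. Whether these genes depend on WNT signals in the early ureter is the question that the treated and control channels address here.

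Ctgf, Cyr61 and Ankrd1 were lower with IWP-2 by between 0.40 and 0.70 on the log2 scale, and Nov was higher by 0.44. Wisp1, Wisp2, Amotl2, Yap1 and Wwtr1 did not pass the test. Thus 4 of the 9 members were called, 3 lower and 1 higher, at an adjusted p under 0.05 in limma. Over all 22455 genes tested, 33.1% were called by the same rule, 15.0% lower and 18.1% higher, so that a call by itself sets no member apart from the background. The median of the 9 log2 ratios was -0.09, beside 0.00 for all genes tested, for which the values from the 5th to the 95th percentile ran from -0.33 to 0.34. Ankrd1 ranked 405th of all genes by the size of its ratio. No member passed the limits that the study set, which ask on each array for an intensity above 100 and more than a 2-fold change, while 0.424% of the gene names did. With a limit of 1.5-fold no member passed either, and 1.06% of the names did. With the limit of 1.5-fold, only the intensity limit kept out Ankrd1. Its processed intensities were 40 to 73 in control and 17 to 29 in treated channels. On array 2 its change, from 45.9 in control to 25.1 with IWP-2, also fell short of 2-fold. Whatever their change, the intensity limit kept out Wisp2 (7.1 to 17.6) and Nov, which exceeded 100 only in the treated channel of array 4 (114).

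**Figure D1:**
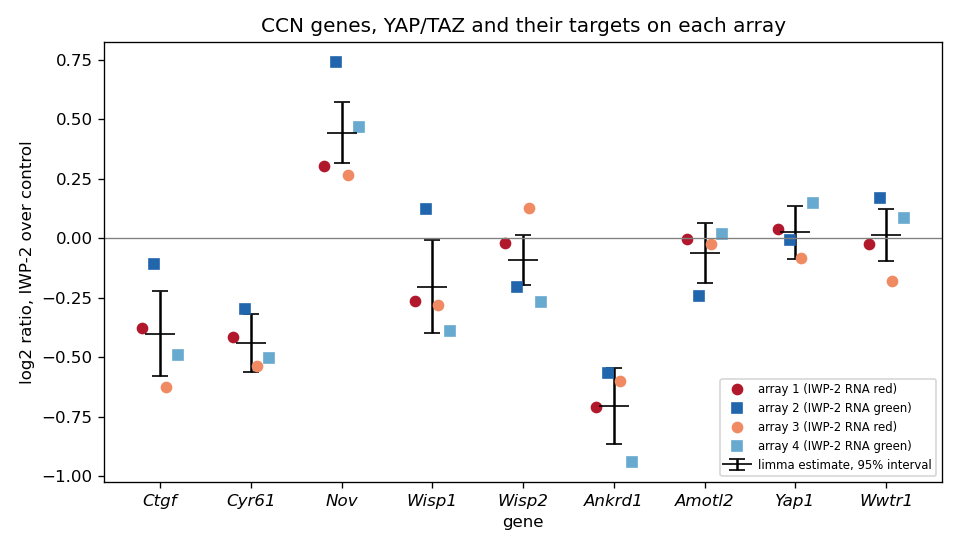
Log2 ratio of IWP-2 over control for each member (y axis) on arrays 1 to 4, with circles where the treated RNA was red and squares where it was green. The dash is the limma estimate with its 95% interval. All 4 arrays lie below 0 for Ctgf, Cyr61 and Ankrd1 and above 0 for Nov, while for the other 5 genes the arrays fall on both sides of 0.

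The arrays were similar in quality. Raw intensities of gene spots had medians of 368 to 711 in control and 385 to 694 in treated channels, over a local background of 28 to 77. In each channel 75.1% to 80.0% of probes exceeded background clearly, and no gene spot was saturated. For all genes together the median SD between arrays was 0.11. The 4 spots of a member's probe differed by an SD of 0.01 to 0.14 within an array, and the members' SD between arrays was 0.10 to 0.22. For the dye term 0 genes had an adjusted p under 0.05 in limma, although 4233 had an unadjusted p under 0.05. The compound was checked with 4 direct targets of WNT signalling. Sp5 fell by 2.72 ± 0.28 (SD, n = 4), Nkd1 fell by 1.59 ± 0.08, Axin2 fell by 1.56 ± 0.09 and Lef1 fell by 1.47 ± 0.16. In the reported fit each of them thus fell by more than any member. With the processed signals of the scanner software the ratio was -1.07 for Axin2 and -1.12 for Ankrd1. Sp5, Nkd1 and Lef1 still fell by more than any member there.

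TEAD factors recognise the letters GGAATG. The promoters of the members were searched for it on both strands, because several members are commonly read as TEAD output. Yap1 and Wwtr1 instead encode cofactors of TEAD. The RefSeq promoter table of GRCm38.p6 holds 5 of the 9 members, namely Cyr61 (there Ccn1), Ankrd1, Amotl2, Yap1 and Wwtr1. The 250 bases before the transcription start held GGAATG or its reverse complement in each of these 5, among them genes that fell and genes that did not pass the test. Of 32851 promoter windows of this length, 12.6% held it. The windows are shown 5′ to 3′ on the strand of the gene, with the match in capitals, for a pair of genes that fell and for 1 that did not pass the test. They lie at chr3:145649986-145650235 (minus strand, Cyr61), chr19:36119845-36120094 (minus strand, Ankrd1) and chr9:102717554-102717803 (plus strand, Amotl2).
Cyr61: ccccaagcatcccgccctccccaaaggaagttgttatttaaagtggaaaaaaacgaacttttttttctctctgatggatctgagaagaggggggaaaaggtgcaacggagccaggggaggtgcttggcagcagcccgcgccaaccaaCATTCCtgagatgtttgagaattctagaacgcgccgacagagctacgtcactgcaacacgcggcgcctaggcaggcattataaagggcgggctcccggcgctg
Ankrd1: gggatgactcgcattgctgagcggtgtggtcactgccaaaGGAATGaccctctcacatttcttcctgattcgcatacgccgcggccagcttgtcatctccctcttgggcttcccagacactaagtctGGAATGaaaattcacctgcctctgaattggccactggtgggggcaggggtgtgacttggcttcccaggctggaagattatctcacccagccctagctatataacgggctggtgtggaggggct
Amotl2: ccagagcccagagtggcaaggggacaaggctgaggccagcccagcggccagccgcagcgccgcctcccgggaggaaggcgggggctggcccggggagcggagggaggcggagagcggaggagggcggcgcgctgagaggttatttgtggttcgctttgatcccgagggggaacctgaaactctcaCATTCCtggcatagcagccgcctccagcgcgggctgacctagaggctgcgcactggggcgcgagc
Cyr61 has 1 match at positions -103 to -98, counted with -1 as the last base before the start, and Ankrd1 has 2, at -210 to -205 and -123 to -118. The match of Amotl2 is at -65 to -60. In Yap1 the match is at -141 to -136, and in Wwtr1 it lies at -136 to -131 of the more upstream of its 2 windows. CTTTGA, the core bound by TCF and LEF factors, was found in Amotl2 at -97 to -92 and in Wwtr1, where on the opposite strand it overlaps the TEAD match by 1 base, but in neither Cyr61, Ankrd1 nor Yap1. It occurs in 13.8% of all windows. The CArG box of SRF was found in none of these 5 members and in 1.47% of all windows. These are matches of letters, not measured binding.

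Of the CCN genes, Cyr61 encodes an angiogenic integrin ligand. Its probe (chromosome 3, 145310187 to 145310246, mm9) read log2 intensities of 11.14, 11.67, 11.35 and 11.81 in the control channels of arrays 1 to 4 and 10.73, 11.37, 10.81 and 11.30 in the treated channels. On each array the treated value was the lower one, but the ranges of both groups overlapped because arrays 2 and 4 were brighter in both channels than arrays 1 and 3. The log2 ratios were -0.41, -0.30, -0.54 and -0.51. This is a mean of -0.44 ± 0.11 (SD, n = 4) with a 95% interval of -0.56 to -0.32 and an adjusted p = 0.00158 in limma, or 1.36-fold lower. The call held in 16 of 16 alternative fits.

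Ctgf, the profibrotic member of the family, was measured at chromosome 10, 24318281 to 24318340 (mm9). Control channels read 12.91, 12.84, 12.87 and 13.53, and treated channels read 12.53, 12.74, 12.25 and 13.04, again lower on each array with overlapping ranges. The log2 ratios were -0.38, -0.11, -0.63 and -0.49, which made the fall on array 2 the smallest. The mean was -0.40 ± 0.22 (SD, n = 4), with a 95% interval of -0.58 to -0.22 and an adjusted p = 0.00872 in limma, or 1.32-fold lower. The call was lost with the deposited fold changes in place of the scanner values, where the ratio was -0.42 with an adjusted p = 0.126 in limma. Arrays 1 and 2 alone gave -0.24 and arrays 3 and 4 alone gave -0.56.

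Nov, a CCN gene often linked to growth restraint and quiescence, was the member that rose. Its probe at chromosome 15, 54584204 to 54584263 (mm9) was dim, with log2 intensities of 8.40, 8.09, 8.32 and 8.45 in control and 8.71, 8.83, 8.59 and 8.91 in treated channels. All treated values lay above all control values. Groups that did not overlap were found for 2 of the 9 members, Nov and Ankrd1, and for 22.4% of all genes tested. The log2 ratios of Nov were 0.31, 0.74, 0.27 and 0.47, both larger values on the arrays with green treated RNA. The mean was 0.44 ± 0.21 (SD, n = 4) with a 95% interval of 0.31 to 0.57 and an adjusted p = 0.00195 in limma, or 1.36-fold higher. With the deposited fold changes the ratio was 0.57 and the adjusted p = 0.0531 in limma.

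Wisp1, a WNT-inducible CCN gene, has 2 probes. The brighter one (chromosome 15, 66754637 to 66754696, mm9) stood for the gene. It read 12.29, 11.94, 12.17 and 12.57 in control and 12.03, 12.06, 11.89 and 12.18 in treated channels. The treated value was lower on arrays 1, 3 and 4 and higher on array 2, with ratios of -0.26, 0.12, -0.28 and -0.39. The mean of -0.20 ± 0.22 (SD, n = 4) had a 95% interval of -0.40 to -0.01 and an adjusted p = 0.102 in limma. The other probe lies at chromosome 15, 66750958 to 66751017 (mm9) and is printed because it differed from the first on array 2.
Wisp1 probe: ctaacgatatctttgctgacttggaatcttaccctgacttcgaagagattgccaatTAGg
In 1 of its reading frames this 60-base probe has 18 codons before the stop codon, which is in capitals. It read -0.16, -0.23, -0.06 and -0.37, lower on 4 of 4 arrays, with a mean of -0.20 ± 0.13 (SD, n = 4). Averaged over both probes, Wisp1 passed the test at -0.20 with an adjusted p = 0.0377 in limma, and without array 2 the brighter probe passed at -0.33 with an adjusted p = 0.00373 in limma.

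Wisp2 encodes the CCN protein that lacks the C-terminal module. At chromosome 2, 163658717 to 163658776 (mm9) it was close to background, with log2 intensities of 6.72 to 7.08 in control and 6.64 to 6.89 in treated channels, which overlapped. Its ratios of -0.02, -0.21, 0.13 and -0.27 had both signs. The mean was -0.09 ± 0.18 (SD, n = 4), with a 95% interval of -0.20 to 0.01 and an adjusted p = 0.159 in limma. With the processed signals, which carry no offset, the ratio was -0.24 and did not pass either (adjusted p = 0.119 in limma).

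**Figure D2:**
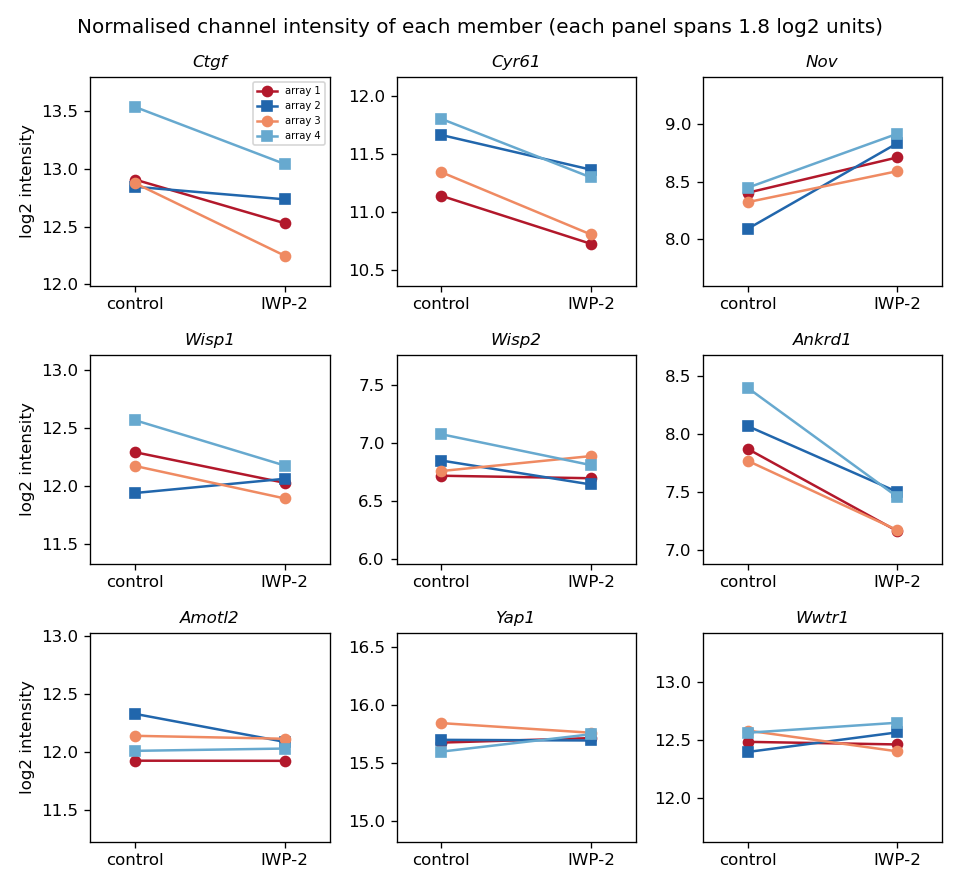
Normalised log2 intensity of each member (y axis) in the control and IWP-2 channels, with a line joining the channels of 1 array. All panels span the same number of log2 units. The lines of Cyr61, Ctgf and Ankrd1 all run downwards and those of Nov upwards, and for Nov and Ankrd1 no treated value falls within the range of the controls.

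Ankrd1 encodes a stress-responsive nuclear and sarcomeric ankyrin repeat protein and is used as a YAP target and as a muscle gene. Its probe at chromosome 19, 36186809 to 36186868 (mm9) was dim but well above background in all 8 channels. Log2 intensities were 7.87, 8.07, 7.77 and 8.40 in control and 7.16, 7.50, 7.17 and 7.46 in treated channels, so that all treated values lay below all control values. The log2 ratios were -0.71, -0.57, -0.60 and -0.94. The mean of -0.70 ± 0.17 (SD, n = 4) had a 95% interval of -0.86 to -0.55 and an adjusted p = 0.000765 in limma, or 1.63-fold lower, the largest change among the members. Because an offset of 50 was added to the intensities, changes of dim probes are understated. With the processed signals of the scanner software, which carry no such offset, the ratio was -1.12, and with the deposited fold changes it was -1.06.

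Amotl2, an angiomotin-like junction protein and a feedback target that restrains YAP, did not pass the test. Its probe (chromosome 9, 102635025 to 102635084, mm9) read 11.93, 12.33, 12.14 and 12.01 in control and 11.92, 12.09, 12.11 and 12.03 in treated channels. The groups overlapped, and array 2 alone stood lower, with ratios of -0.00, -0.24, -0.03 and 0.02. The mean was -0.06 ± 0.12 (SD, n = 4) with an adjusted p = 0.408 in limma, and the 95% interval of -0.19 to 0.06 ended short of the interval of each of Ctgf, Cyr61 and Ankrd1.

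The effectors themselves did not pass the test. For Yap1 (chromosome 9, 7932025 to 7932084, mm9) the log2 intensities were 15.67, 15.70, 15.84 and 15.60 in control and 15.71, 15.69, 15.76 and 15.75 in treated channels. The ratios of 0.04, -0.01, -0.08 and 0.15 scattered around 0, with a mean of 0.03 ± 0.10 (SD, n = 4), a 95% interval of -0.09 to 0.14 and an adjusted p = 0.715 in limma. For Wwtr1, the gene of TAZ (chromosome 3, 57259999 to 57260058, mm9), control channels read 12.49, 12.40, 12.58 and 12.57 and treated channels read 12.46, 12.57, 12.40 and 12.65. Its ratios were -0.02, 0.17, -0.18 and 0.09, with negative values on the arrays with red treated RNA and positive values on the others. The mean was 0.01 ± 0.15 (SD, n = 4), with a 95% interval of -0.09 to 0.12 and an adjusted p = 0.844 in limma. The signs of Yap1 and Wwtr1 turned when the arrays were centred on the median instead of by loess, to -0.05 and -0.01. Transcript levels do not report the phosphorylation or location of these proteins, which was not measured here.

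To see whether the members moved with their pathway, lists of related genes were read from the same fit. The other 18 genes of a widely used signature of YAP and TAZ activity were all tested. Of these, 2 were lower, 4 were higher and 12 did not pass, with a median of 0.03. Foxf2, a forkhead gene and known hedgehog target, fell by 1.38 ± 0.07 (SD, n = 4, adjusted p = 1.53e-05 in limma). Nt5e, the gene of the ectonucleotidase that produces adenosine, fell by 0.77 ± 0.03. F3, the gene of tissue factor, rose by 0.62 ± 0.15, and Igfbp3, which binds insulin-like growth factors, rose by 0.33 ± 0.08. Hence the calls of these 18 genes lay in both directions, and 33.3% of them were called, beside 33.1% of all genes. Signature genes that are members are not in this share.

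Among 20 Hippo kinases and adaptors, 19 were tested, 1 was lower, 2 were higher and 16 did not pass, with a median of 0.03. The atypical cadherin Fat4 fell by 0.36 ± 0.25, and it ranged from -0.69 on array 3 to -0.08 on array 4. Wwc1, a scaffold that activates the LATS kinases, rose by 0.26 ± 0.03, and the LIM adaptor Ajuba rose by 0.18 ± 0.12. Ajuba passed in 8 of 16 alternative fits, and neither without array 1 (0.13) nor without array 4 (0.14). The kinase genes Stk3 (0.03), Stk4 (0.04) and Lats1 (0.10) did not pass, nor did Lats2 (-0.00), which is counted with the signature above. These 4 were named after their values were seen. Of 8 TEAD factors and cofactors 6 were tested. Tead1 fell by 0.24 ± 0.20 and passed in 10 of 16 alternative fits, neither without array 2 (-0.22) nor without array 3 (-0.16). Vgll4, which competes with YAP for TEAD, fell by 0.27 ± 0.16 and did not pass without array 1 (-0.23). Tead4 rose by 0.24 ± 0.07. Vgll1 and Vgll2 were not well above background.

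The MRTF-SRF pathway, which couples actin dynamics to transcription, also drives Ctgf and Cyr61. All 16 genes were tested, with 4 lower, 1 higher and a median of -0.04. The tropomyosin genes Tpm2 and Tpm1 fell by 0.43 ± 0.06 and 0.19 ± 0.10, and Myl9, the regulatory light chain of smooth muscle myosin, fell by 0.38 ± 0.22. Zyx, a focal adhesion gene, rose by 0.17 ± 0.10 and passed in 7 of 16 alternative fits, with no call without array 1 (0.11), array 2 (0.17) or array 4 (0.17). Myl9 and the tropomyosins are also genes of smooth muscle. Without array 3 neither Myl9 (-0.34) nor Tpm1 (-0.15) passed, and Tpm1 did not pass without array 2 either (-0.17). The remaining lower gene, Cnn2 (-0.14), passed in 5 of 16 alternative fits, and in none that left out 1 array. It was named after its values were seen. Over the alternatives 2 to 6 genes of the list were called lower.

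For TGF-beta, a strong inducer of Ctgf, 10 response genes were tested, of which 3 were lower and 2 higher with a median of 0.00. Postn, the gene of the matrix protein periostin, fell by 1.28 ± 0.31 (SD, n = 4, adjusted p = 0.000549 in limma). The ligand gene Tgfb3 fell by 0.27 ± 0.04. Of the feedback inhibitors, Smad7 fell by 0.31 ± 0.07 and Pmepa1 rose by 0.36 ± 0.08, so that they moved in opposite directions.

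Among 12 genes of CCN receptors, 5 were higher, 1 was lower and 6 did not pass, with a median of 0.12. Over all genes tested, 18.1% were called higher and 15.0% lower. The integrin genes Itgb5 and Itgb3 rose by 0.55 ± 0.06 and 0.48 ± 0.08, and both passed in 16 of 16 alternative fits, although averaged over its probes Itgb3 rose by only 0.26. Itga6 fell by 0.29 ± 0.11, but averaged over its probes the ratio was -0.14 and did not pass. Lrp1, a large endocytic receptor, was higher by 0.19 ± 0.12, but averaged over its probes the ratio was -0.01 and did not pass, nor did it pass without array 1 (0.16) or array 4 (0.16). The number of receptor genes called higher was 2 to 6 over the alternatives. Itgb1 and Itgav, also called higher, passed in 5 and 9 of 16 alternative fits. The ratios of Itgb1 were negative on arrays 1 and 3 (-0.14 and -0.07), with red treated RNA. They were positive on arrays 2 and 4 (0.42 and 0.34). Itgav was negative on array 3 (-0.11). Without the dye term neither Itgb1 nor Itgav passed (adjusted p = 0.366 and 0.178 in limma). Both genes were named after their values were seen. In the reported fit opposite directions occurred within the CCN ligands and within their receptors, for the receptors through Itga6 alone.

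**Figure D3:**
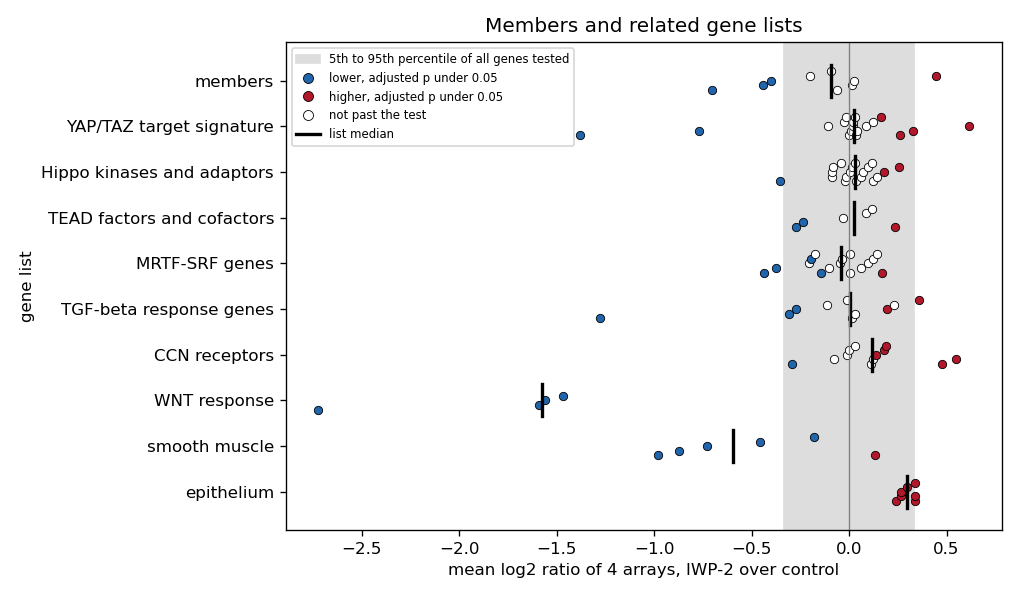
Mean log2 ratio of IWP-2 over control (x axis) for each gene of the members, the related lists and a pair of marker lists (y axis). Blue and red points are genes lower and higher at an adjusted p under 0.05, white points did not pass, black bars are list medians and the grey band is the 5th to 95th percentile of all genes tested. The 4 WNT response genes all lie left of the members, and the signature of YAP and TAZ has genes on both sides of the band.

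Since the ureter explants hold several tissues, fewer cells of a type and less RNA per cell cannot be told apart. All 7 epithelial and all 6 mesenchymal markers were well above background, so that both tissues of the labelled organ were represented. Smooth muscle markers were lower with IWP-2 for 5 of 6 genes, beside 15.0% of all genes tested. The 5 were Cnn1 (-0.98), Actg2 (-0.87), Tagln (-0.73), Acta2 (-0.46) and Myh11 (-0.18), and Smtn was higher (0.13). Their summed linear intensity was 41984 to 57710 in control and 32093 to 42354 in treated channels, with log2 ratios of -0.58 to -0.18. Without 1 array at a time, Smtn passed on no occasion, and Myh11 did not pass without array 1 (-0.16) or array 4 (-0.15). The falls of Ctgf and Cyr61 were smallest on array 2. So was that of Ankrd1, by a narrow margin (-0.57, beside -0.60 on array 3). The falls of Acta2 (-0.12), Tagln (-0.39), Actg2 (-0.53) and, by a narrow margin, Cnn1 (-0.79) were also smallest there. Myh11 instead fell more on array 2 (-0.24) than on arrays 1 (-0.11) and 3 (-0.03). Of 8 markers of cardiac and skeletal muscle, tissues that express Ankrd1 strongly, Myog and Ckm were not well above background, Actc1 fell by 1.01 ± 0.23, and the other 5 did not pass. Their summed intensity was 20433 to 25085 in control and 9868 to 12883 in treated channels, and this fall was that of Actc1: without it the sum was 919 to 959 in control and 869 to 943 in treated channels. The cartilage genes Col2a1 and Col9a1 fell by 0.45 and 0.44, Acan did not pass, and Matn1 and Comp were not well above background. The summed cartilage intensity was 51301 to 73341 in control and 42577 to 45862 in treated channels. Whether cardiac muscle, skeletal muscle or cartilage was present in the pools was not tested. Nor was the part of any tissue behind these markers in the results for Ctgf, Cyr61 and Ankrd1.

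Markers of other tissues were mostly higher. Over all genes tested 18.1% were called higher, and the 95th percentile of the log2 ratio was 0.34. All 7 epithelial markers rose, by 0.24 to 0.34, with a summed intensity of 179906 to 195169 in control and 205264 to 255388 in treated channels. Krt19 did not pass without array 2 (0.22) or array 3 (0.18), nor did Cldn4 without array 3 (0.21). Of the mesenchymal markers, Twist1 (0.85) and Pdgfrb (0.80) rose and Tbx18 fell by 0.74, while the summed intensity was 282937 to 307462 in control and 300577 to 334593 in treated channels. Endothelial markers rose for 4 of 6 genes (Cldn5, Cdh5, Pecam1 and Kdr, by 0.15 to 0.37), with sums of 53037 to 61289 and 60573 to 70928. Only 2 of them passed without array 3 (Pecam1 at 0.17 and Kdr at 0.11 did not). Likewise only 2 passed without array 4 (Pecam1 at 0.19 and Kdr at 0.16 did not). Without array 2, Kdr did not pass (0.14). Blood markers rose for 5 of 6 genes (Ptprc, Hba-a1, Hba-x, Hbb-b1 and Hbb-bh1, by 0.19 to 0.36), with sums of 172089 to 268436 and 229900 to 287512. Hbb-bh1 did not pass without array 1 (0.20), array 2 (0.13) or array 3 (0.19). Nephron progenitor markers rose for 5 of 6 genes (Six2 at 1.14, Meox1, Osr1, Eya1 and Cited1) while Crym fell by 0.96, with sums of 46205 to 50530 and 51481 to 58673. Without 1 array at a time 3 or 4 of them rose, since Cited1 did not pass without array 1 (0.18), array 2 (0.11) or array 3 (0.14), Eya1 without array 1 (0.15) or array 4 (0.15), and Osr1 without array 3 (0.27). The rise of these lists stood beside that of Nov, and their part in it was not tested.

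Among genes with a gene name, those most like a called member over the 8 channel values, each dye centred, were not pathway genes of the lists above. They were Pfdn6 (Pearson r of 0.996), Smim3 (0.987) and Btc (0.984) for Ankrd1. For Nov they were Adap2 (0.993), Dppa2 (0.992) and Tspan8 (0.991), and for Cyr61 they were Iqcf4 (0.993), Pinx1 (0.992) and Sema7a (0.988). These values are a description, as the 8 points share 4 arrays and were picked from a search over many genes. The search covered the genes tested, without transcript identifiers and Rik-type names.

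**Figure D4:**
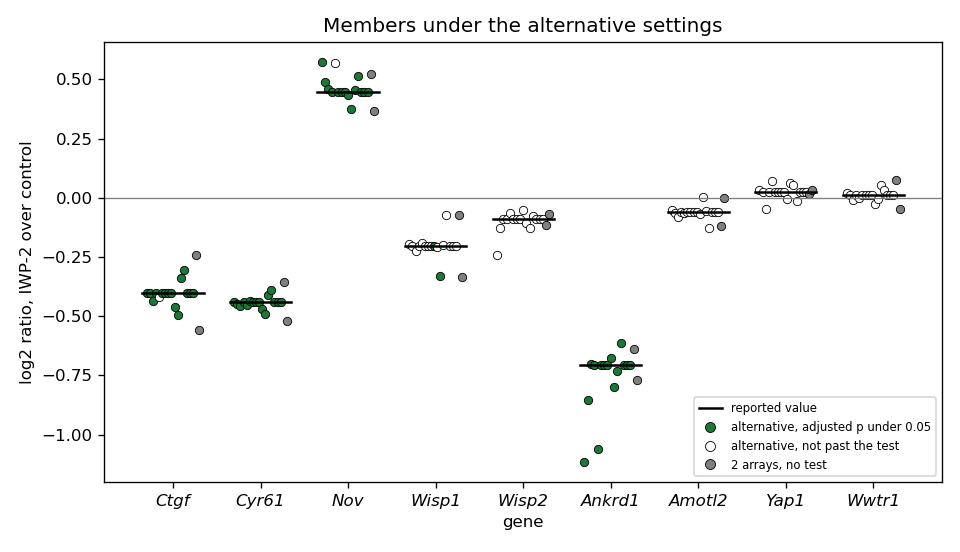
Log2 ratio of IWP-2 over control for each member (y axis) as reported (black line) and under each alternative setting (points, spread sideways for legibility). Green points passed an adjusted p of 0.05, white points did not, and grey points rest on 2 arrays without a test. Ankrd1 and Cyr61 are green under every alternative with a test in which they were kept, and Amotl2, Yap1 and Wwtr1 under none.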

How the data were processed

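The authors hybridised 4 two-colour Agilent arrays and read them with Agilent Feature Extraction 10.7.3.1. Per the file headers, the deposited spot files hold raw mean and local background intensity, a processed intensity that is background-subtracted and dye-normalised, and a log10 ratio of red over green, which was used only to check direction. The authors also deposited a table of signed fold changes per array, entered here as a score whose normalisation is not given in the sources used here; it served as an alternative. Probe positions in the files are on mm9, and the annotation of that build was not used here.

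Raw intensities were corrected with limma 3.58.1 (R 4.3.3) by normexp (offset 50), followed by loess normalisation of each array (span 0.3). Control spots and outlier spots (3.01% to 3.38% of gene spots) were left out, and the 4 spots of a probe were averaged. A gene was tested if more than 0.5 of its probe's spots were well above background in the control channels of all 4 arrays or in the treated channels of all 4 arrays, and the brightest probe stood for it. Log2 ratios of IWP-2 over control were fitted with lmFit and eBayes with a dye term. Tests are two-sided, and p-values were adjusted by Benjamini-Hochberg over 22455 genes. Values are means of 4 arrays with the SD between arrays. Channel intensities are log2 values after loess and Aquantile normalisation and include the offset. The study's methods name no test for the arrays, and its filter was applied to processed intensities, with the brighter channel as the intensity and a gene counted if any probe passed. The fit was tested on simulated data. Promoters came from the RefSeq table of GRCm38.p6, where all 9 members have an entry by symbol or synonym in the gene table.

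Members, gene lists and motifs were chosen with earlier results of these data known. The members and 4 WNT targets are named. Each other pathway list gives up to 4 genes past the test with the largest change (the 2 largest where fewer than 2 passed). Also named are the 3 genes most like each of the 3 called members with the largest change, among genes with a gene name. Marker lists are given as counts, ranges and genes past the test. A marker list is not reported here. The number of arrays limits the precision.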

Additional observations from a re-analysis of the deposited data

How the results depend on the processing

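Ankrd1, lower in 15 of 15 alternative fits, and Cyr61, lower in 16 of 16, kept their calls. Ctgf kept its call in 15 of 16 and Nov in 14 of 15. With the deposited fold changes, which are rounded, Ctgf stood at -0.42 and Nov at 0.57 without passing, 2050 genes were lower and 1833 higher, and the 7 pathway lists held 11 lower and 7 higher genes in place of 17 and 15. With the mean over probes Wisp1 passed at -0.20. Median centring turned Yap1 to -0.046 and Wwtr1 to -0.011, neither past the test. With 1.5-fold in the study's filter 207 genes were lower and 109 higher, in place of 105 and 22. The causes were not tested.

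Without 1 array at a time Yap1 ranged from -0.014 to 0.064, Wwtr1 from -0.026 to 0.053, Amotl2 from -0.13 to 0.0033 and Wisp1 from -0.33 to -0.075, and the 4 called members kept their calls. The genes called lower numbered 2180 to 2813 and those called higher 2878 to 3345, with the fewest lower genes, 2180, without array 3. The pathway lists held 14 to 17 lower genes and 9 to 14 higher, with 9 higher both without array 1 and without array 4. Fewer arrays leave fewer degrees of freedom.

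An alternative chosen after seeing the data averaged arrays of opposite dye order into 2 replicates, pairing 1 with 2 and 3 with 4, or 1 with 4 and 2 with 3. The 4 calls held in both pairings. With 1 and 4, and 2 and 3, averaged the pathway lists held 12 higher genes, and Zyx, Ajuba and Itgb1 did not pass. Across genes, the difference of arrays 1 and 3 correlated with that of arrays 2 and 4 at r of -0.40 in control channels, -0.30 in treated channels and -0.04 for the ratios; whether arrays share RNA cannot be told from this. All 4 arrays were on 1 slide and in 1 scan, so that slide and scan could not be fitted as a block. Ankrd1, Nov and Wisp2 are too dim for the limit of a mean processed signal over 100 and have no value there. The fit on ratios already pairs the treated and control pool of an array, and with the 8 channels as separate samples the 4 calls also held.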
